A study of Caenorhabditis elegans with 9 samples.

Results

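The vitellogenins are the yolk proteins of Caenorhabditis elegans, and the genes examined here are the 6 members of the family, vit-1 to vit-6. They were taken by their WormBase names, with earlier results of these data known, and are 6 of the 20447 genes quantified in the series. All 6 were among the 14798 genes that were abundant enough to be tested.

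The study measured RNA of whole worms collected at larval stage 4, the last larval stage. One group was wild type (WT) and came from mothers given vehicle, here the wild-type vehicle group. The other groups both carried nhr-114(gk849), an allele of the nuclear hormone receptor gene nhr-114, and came from mothers given vehicle (mutant vehicle) or 8 μM vitamin B12 (mutant B12). Each group had 3 libraries. None of the 9 libraries came from wild type with maternal B12, so the effect of B12 is measured within the mutant alone.

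Vitellogenins are made in the intestine, secreted into the body cavity and taken up by growing oocytes through the receptor RME-2, where they supply lipid and protein to the embryo. In hermaphrodites their transcription switches on around the transition from the last larval stage to the adult, and in adults they are among the most abundant messenger RNAs of the intestine. The products of vit-1 to vit-5 are the large yolk polypeptides known as YP170, while the product of vit-6 is cut into the smaller YP115 and YP88.

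The annotation WBcel235 places vit-5 at X:3403471-3408603, vit-4 at X:3558769-3563965, vit-3 at X:3567355-3572549, vit-2 at X:5101042-5106169 and vit-1 at X:7727889-7733168. The genes vit-3 and vit-4 lie on the minus strand 3389 bases apart, with no other protein-coding gene between them, and vit-5 lies on the plus strand 150165 bases from vit-4. The only autosomal member is vit-6, at IV:8261157-8266459 on the plus strand.

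The sequences of some of these genes are nearly the same, and the deposited counts show where reads were divided between them. Counts estimated by kallisto are fractions where a read fits several transcripts, and whole numbers where it does not. Within a tolerance of 0.001 counts, vit-6 was whole in 9 of 9 libraries. The sum of vit-1 and vit-2 was whole in 9 of 9, as was the sum of vit-3, vit-4 and vit-5, whereas vit-1, vit-2, vit-3 and vit-4 taken alone were whole in 0 of 9 and vit-5 in 1 of 9, the library where it was 0. Reads were thus divided inside 2 blocks, vit-1 with vit-2 and vit-3 with vit-4 and vit-5, and the best measured quantities are vit-6 and the 2 block sums. Levels of single genes inside a block are reported as uncertain to the extent of that division.

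The targeted gene matched the labels. The count of nhr-114 was 6954, 8027 and 7436 in the wild-type libraries, 3, 4 and 4 in the mutant vehicle libraries and 3, 2 and 4 in the mutant B12 libraries. Total counts per library ran from 14461993 to 16659895. Levels below are CPM, counts scaled to library size with edgeR's TMM method, given for replicates 1, 2 and 3 in that order. Nothing in the labels says whether the replicates were separate cultures, so p-values measure the spread between these libraries only. In whole animals, fewer expressing cells and less RNA per cell cannot be told apart.

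All 6 genes together summed to 478.2, 1144 and 1098 CPM in wild type, to 418.7, 582.3 and 424.1 CPM in the mutant vehicle group and to 2963, 1460 and 2115 CPM in the mutant B12 group. Every B12 library was above every other library, while wild-type replicate 1 lay inside the mutant vehicle range. As a share of all counts the family took 0.0493% to 0.115% in wild type, 0.0424% to 0.0565% in the mutant vehicle group and 0.144% to 0.292% with B12. The mean sums were 906.6 ± 371.7 CPM, 475.1 ± 92.95 CPM and 2179 ± 753.5 CPM (SD, n = 3).

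**Figure D1:**
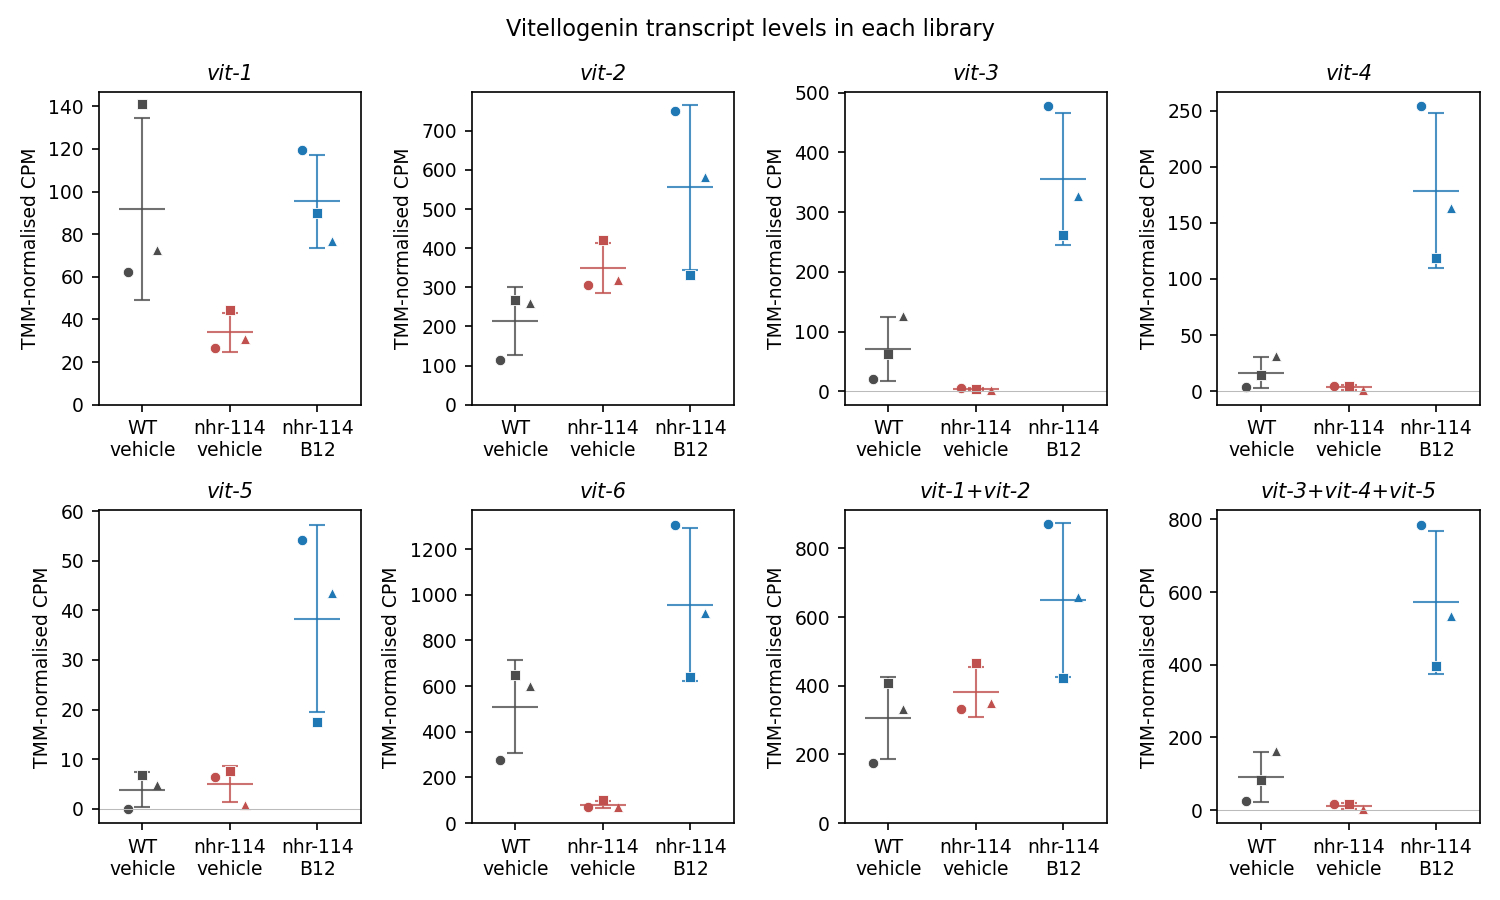
Transcript levels of vit-1 to vit-6 and of the 2 block sums, 1 panel each, with TMM-normalised CPM on a linear y axis and the 3 groups on the x axis. Circles, squares and triangles are replicates 1, 2 and 3, the long bar is the mean and the whiskers are the SD (n = 3). The mutant vehicle libraries of vit-6 sit between 70.1 and 99.6 CPM, below all wild-type libraries, whereas those of vit-2 sit above all wild-type libraries.

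Mutant and wild-type larvae of vehicle-treated mothers were compared first, which addresses the effect of losing nhr-114. The clearest difference was in vit-6, the YP115 and YP88 precursor, whose reads were not divided with any other gene. Its level was 278.6, 650.5 and 602.0 CPM in wild type and 70.1, 99.6 and 72.3 CPM in the mutant. The groups did not overlap, and the lowest wild-type library was above every mutant library. The gene fell 6.33-fold, a log2 fold change of -2.66 ± 0.38 (SE; adjusted p = 0.00108, edgeR quasi-likelihood test with Benjamini-Hochberg adjustment over all genes tested).

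The block of vit-3, vit-4 and vit-5 summed to 24.3, 83.9 and 163.1 CPM in wild type and to 15.7, 16.8 and 2.96 CPM in the mutant. The 3 wild-type libraries were spread widely, but each was above all mutant libraries. The sum fell 7.67-fold, with a log2 fold change of -2.94 ± 0.81 (edgeR adjusted p = 0.0245). Without wild-type replicate 3, the highest of its group, the log2 fold change was -2.20 and the adjusted p was 0.0544, so this call rested on that library.

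Inside the block, vit-3 held most of the wild-type signal. It measured 20.5, 62.8 and 126.9 CPM in wild type and 4.91, 4.02 and 1.42 CPM in the mutant, and it fell by 4.35 ± 0.76 on the log2 scale (edgeR adjusted p = 0.0034). Without wild-type replicate 3 the log2 fold change was -3.60, with an edgeR adjusted p of 0.0037. The level of vit-4 was 3.84, 14.2 and 31.5 CPM in wild type and 4.37, 5.15 and 0.741 CPM in the mutant. These ranges overlapped at wild-type replicate 1, and the log2 fold change of -2.28 ± 0.85 did not pass the test (edgeR adjusted p = 0.0729). It did pass without wild-type replicate 1 (-2.75, edgeR adjusted p = 0.00355), without mutant vehicle replicate 2 (-2.72, edgeR adjusted p = 0.0484) or without mutant B12 replicate 2 (-2.28, edgeR adjusted p = 0.0377). Without wild-type replicate 3 the value was -1.40 (edgeR adjusted p = 0.21), and with DESeq2 it passed at -2.30 (adjusted p = 0.0327). For vit-5 a count of 0 in wild-type replicate 1 allows a level of up to 0.183 CPM, counting error only, and the other wild-type libraries had 6.92 and 4.73 CPM. The mutant libraries had 6.41, 7.59 and 0.802 CPM, which covered most of the wild-type range, and the difference did not pass (log2 fold change 0.34 ± 1.08, edgeR adjusted p = 0.838).

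The block of vit-1 and vit-2 behaved differently. It summed to 175.2, 409.5 and 332.5 CPM in wild type and to 332.9, 466.0 and 348.9 CPM in the mutant, so the ranges overlapped. The log2 fold change of the sum was 0.32 ± 0.34, which did not pass (edgeR adjusted p = 0.51). As divided by kallisto, the 2 genes went opposite ways. The level of vit-1 was 62.1, 140.9 and 72.8 CPM in wild type and 26.5, 44.3 and 30.9 CPM in the mutant, with no overlap, and it fell by 1.44 ± 0.34 on the log2 scale (edgeR adjusted p = 0.0104). The level of vit-2, the larger share of the block, was 113.1, 268.6 and 259.7 CPM in wild type and 306.4, 421.7 and 318.0 CPM in the mutant. Every mutant library was above every wild-type library, yet the log2 fold change of 0.71 ± 0.38 did not pass (edgeR adjusted p = 0.19).

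In all, 3 of the 6 genes were called lower and 0 higher, against a background of 18.3% of all 14798 genes called lower and 18.3% called higher in the same fit. Ranges did not overlap for 4 of the 6, where 50.8% of all genes did not overlap. The median log2 fold change of the 6 genes was -1.86, beside 0.01 over all genes tested. The 6 genes are not separate measures, because reads were divided inside the blocks. Among vit-6 and the block sums, vit-6 and the vit-3, vit-4 and vit-5 sum were called lower. The vit-1 and vit-2 sum was not called, so the vit-1 call rests on that division.

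The second comparison asked what maternal B12 does within the mutant, and it shares the mutant vehicle libraries with the first. The level of vit-6 went from the 70.1 to 99.6 CPM above to 1307, 640.0 and 921.5 CPM with B12. It rose 11.9-fold, with a log2 fold change of 3.57 ± 0.39 (edgeR adjusted p = 0.00025). Every B12 library was far above every mutant vehicle library.

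The block of vit-3, vit-4 and vit-5 had a larger fold change than vit-6. Its estimated counts were 231, 267 and 48 in the mutant vehicle libraries and 12881, 5777 and 7641 with B12. In CPM the B12 libraries had 785.5, 397.8 and 534.0, all far above the vehicle libraries. The sum rose 48.5-fold, with a log2 fold change of 5.60 ± 0.90 (edgeR adjusted p = 0.00179).

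All 3 genes of the block were called higher as divided by kallisto. With B12, vit-3 stood at 477.4, 262.1 and 327.3 CPM (log2 fold change 6.70 ± 0.81, edgeR adjusted p = 0.000515). For vit-4 the B12 libraries had 253.9, 118.3 and 163.3 CPM (log2 fold change 5.71 ± 0.90, edgeR adjusted p = 0.0016). For vit-5 they had 54.2, 17.4 and 43.5 CPM (log2 fold change 2.96 ± 1.02, edgeR adjusted p = 0.0467). No range overlapped with the vehicle group, but the vit-5 call had the highest adjusted p of the 5 and was lost under several settings. Its log2 fold change was 2.45 without mutant vehicle replicate 3 (edgeR adjusted p = 0.103), 2.63 without mutant B12 replicate 1 (edgeR adjusted p = 0.125) and 2.87 without mutant B12 replicate 3 (edgeR adjusted p = 0.108). The call was also lost at a similar fold change with no filter on low counts (3.01, edgeR adjusted p = 0.087), with DESeq2 (2.98, adjusted p = 0.0952) and with the replicate number as a block (3.10, edgeR adjusted p = 0.0807).

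The block of vit-1 and vit-2 summed to 870.6, 422.3 and 659.7 CPM with B12. Replicate 2 lay inside the mutant vehicle range, and the log2 fold change of 0.77 ± 0.35 did not pass (edgeR adjusted p = 0.104). It passed without wild-type replicate 1 (0.77, edgeR adjusted p = 0.0199) or without mutant B12 replicate 2 (1.00, edgeR adjusted p = 0.0263). Within the block, vit-1 had 119.3, 90.1 and 76.9 CPM with B12, each above all vehicle libraries, and rose by 1.49 ± 0.34 on the log2 scale (edgeR adjusted p = 0.007). The B12 levels of vit-2 were 751.4, 332.2 and 582.8 CPM, with replicate 2 again inside the vehicle range. Its log2 fold change of 0.67 ± 0.38 did not pass (edgeR adjusted p = 0.187), though it did without wild-type replicate 1 (0.67, edgeR adjusted p = 0.0427) or without mutant B12 replicate 2 (0.94, edgeR adjusted p = 0.0415).

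Thus 5 of the 6 genes were called higher and 0 lower, where 22.6% of all genes were called higher and 23.8% lower. The same 5 had ranges that did not overlap, where 27.1% of all genes had every B12 library above every vehicle library. The median log2 fold change of the 6 genes was 3.26, beside -0.04 over all genes tested. Here too the 6 genes are not separate measures. Both vit-6 and the vit-3, vit-4 and vit-5 sum were called higher, and the vit-1 and vit-2 sum was not.

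**Figure D2:**
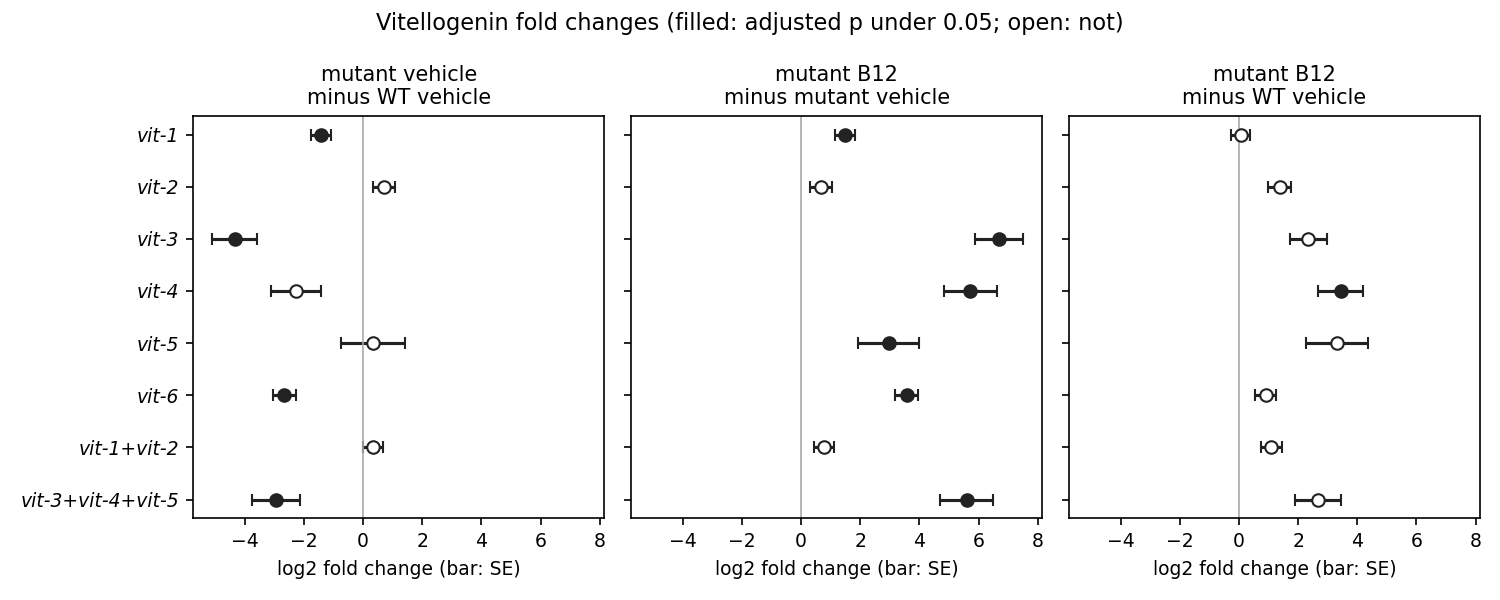
Log2 fold changes of the 6 genes and the 2 block sums in the 3 comparisons, 1 panel each, from the edgeR fit across all genes. Points are estimates, bars are SE, and filled points have an adjusted p under 0.05. In the mutant vehicle panel vit-3 and vit-6 lie far left of 0, in the B12 panel vit-3, vit-4 and their block lie beyond 5, and in the last panel vit-1 lies near 0.

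Last, the mutant from B12-treated mothers was set against wild type, with libraries that both earlier comparisons used. The level of vit-1 was close in both groups, with means of 95.4 ± 21.7 CPM in the B12 group and 91.9 ± 42.7 CPM in wild type (log2 fold change 0.05 ± 0.33, edgeR adjusted p = 0.939). For vit-6 the B12 and wild-type ranges overlapped, because B12 replicate 2 lay just under the highest wild-type library. Its log2 fold change of 0.91 ± 0.36 did not pass (edgeR adjusted p = 0.142).

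The other 4 genes were above every wild-type library in every B12 library, but only vit-4 passed the test. The log2 fold change of vit-4 was 3.44 ± 0.77 (edgeR adjusted p = 0.0257), and the call was lost without mutant B12 replicate 1 (3.09, edgeR adjusted p = 0.0723) or without mutant B12 replicate 3 (3.50, edgeR adjusted p = 0.0666). Without wild-type replicate 3 its log2 fold change was 4.31 (edgeR adjusted p = 0.00871). The values of vit-2 (1.38 ± 0.39, adjusted p = 0.053) and vit-3 (2.34 ± 0.64, adjusted p = 0.0507) lay just past the threshold in the edgeR test. That of vit-5 (3.31 ± 1.04, edgeR adjusted p = 0.0811) lay farther past it. Of 20 alternatives, vit-3 passed in 12, vit-2 in 10 and vit-5 in 6. Leaving out wild-type replicate 3 moved vit-3 to 3.09 (edgeR adjusted p = 0.0117), and leaving out wild-type replicate 2 moved vit-5 to 4.02 (edgeR adjusted p = 0.0587). The block of vit-3, vit-4 and vit-5 had a log2 fold change of 2.66 ± 0.77 (edgeR adjusted p = 0.0626), and the block of vit-1 and vit-2 one of 1.09 ± 0.35 (edgeR adjusted p = 0.0783).

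So 1 of 6 genes was called higher and 0 lower, where 7.28% of all genes were called higher and 6.14% lower. For 4 of the 6 every B12 library was above every wild-type library, which held for 15.9% of all genes, and the median log2 fold change was 1.86. This count moved with single libraries: leaving out mutant B12 replicate 1 or 3 gave 0, and leaving out replicate 1 of wild type, or replicate 2 of either mutant group, gave 4. Neither vit-6 nor a block sum was called in this comparison.

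Levels of different genes were compared per length, as TPM, a length-corrected share of all transcripts, computed from the deposited counts and effective lengths. In wild type the order by mean was vit-6 (85.3 TPM), vit-2 (35.8), vit-1 (14.9), vit-3 (12.8), vit-4 (3.03) and vit-5 (0.712). The lowest vit-6 library was above the highest vit-2 library, whereas each other pair of neighbours in this order had overlapping ranges. In the mutant vehicle group vit-2 came first (55.8 TPM), then vit-6 (12.9) and vit-1 (5.18), with no overlap between these 3, while vit-5 (0.836), vit-3 (0.588) and vit-4 (0.576) overlapped with each other. With B12 the order was vit-6 (138.2 TPM), vit-2 (80.0), vit-3 (54.3), vit-4 (27.3), vit-1 (13.2) and vit-5 (5.84). Over libraries vit-6 overlapped with vit-2 and vit-2 with vit-3, but all 3 libraries had vit-6 first, vit-2 next and then vit-3. The rank of vit-6 by mean TPM among the 20447 genes was 1621 in wild type, 6986 in the mutant vehicle group and 978 with B12. The ranks of vit-2 were 3489, 2328 and 1567 in the same order.

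Expressed as parts of the summed vitellogenin TPM, the mutant vehicle libraries stood apart from the other 6 in the parts taken by vit-2 and vit-6. The share of vit-2 was 23.6%, 23.4% and 23.4% in the wild-type libraries, 73.2%, 72.5% and 75.1% in the mutant vehicle libraries and 24.96%, 22.4% and 27.2% with B12, so wild type and B12 overlapped. The share of vit-6 was 58.3%, 56.6% and 54.2% in wild type, 16.8%, 17.2% and 17.1% in the mutant vehicle group and 43.6%, 43.3% and 42.95% with B12. In the mutant vehicle libraries the pool was therefore mostly vit-2, in the others vit-6 was the largest part. The block of vit-3, vit-4 and vit-5 made up 5.47%, 7.98% and 16.03% of the pool in wild type, 3.98%, 3.05% and 0.743% in the mutant vehicle group and 27.6%, 28.4% and 26.4% with B12.

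**Figure D3:**
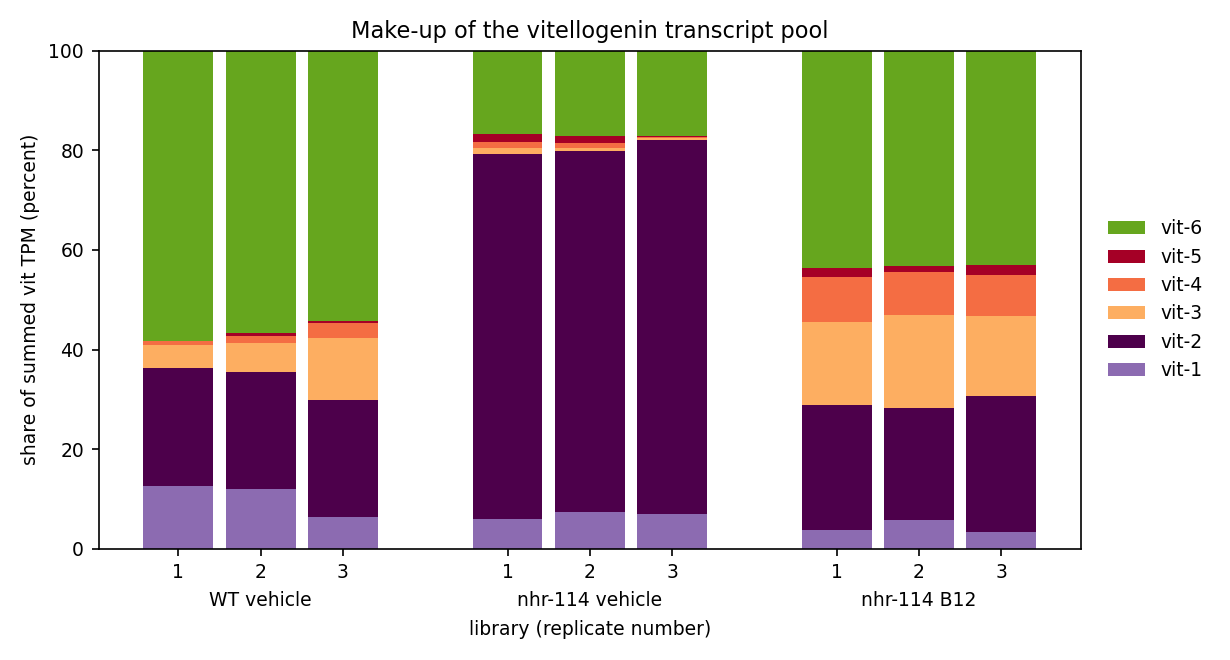
Make-up of the vitellogenin transcript pool in each of the 9 libraries, as the percent of summed vit TPM on the y axis, with 1 stacked bar per library grouped by genotype and treatment. In the mutant vehicle libraries vit-2 takes 72.5% to 75.1% of the bar, and in the other 6 libraries 22.4% to 27.2%.

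Ratios taken inside a library do not depend on how libraries are scaled to each other. The TPM ratio of vit-6 to vit-2 was 2.47, 2.42 and 2.32 in wild type, 0.229, 0.237 and 0.228 in the mutant vehicle group and 1.75, 1.93 and 1.58 with B12. The 3 groups did not overlap, with B12 nearer to wild type than to the vehicle group. Against the sum of vit-1 and vit-2, which does not depend on how their reads were divided, the ratio of vit-6 was 1.61, 1.60 and 1.82 in wild type, 0.212, 0.215 and 0.209 in the mutant vehicle group and 1.52, 1.53 and 1.40 with B12. The wild-type libraries of this ratio remained above all B12 libraries, by a small margin.

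The ratio of the vit-3, vit-4 and vit-5 block to vit-6 was ordered otherwise. It was 0.0938, 0.141 and 0.296 in wild type, 0.237, 0.178 and 0.0434 in the mutant vehicle group and 0.633, 0.657 and 0.616 with B12. Wild type and mutant vehicle overlapped, and the B12 libraries were above both. A ratio within a library shows that genes changed unequally, and no test was made of these ratios.

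**Figure D4:**
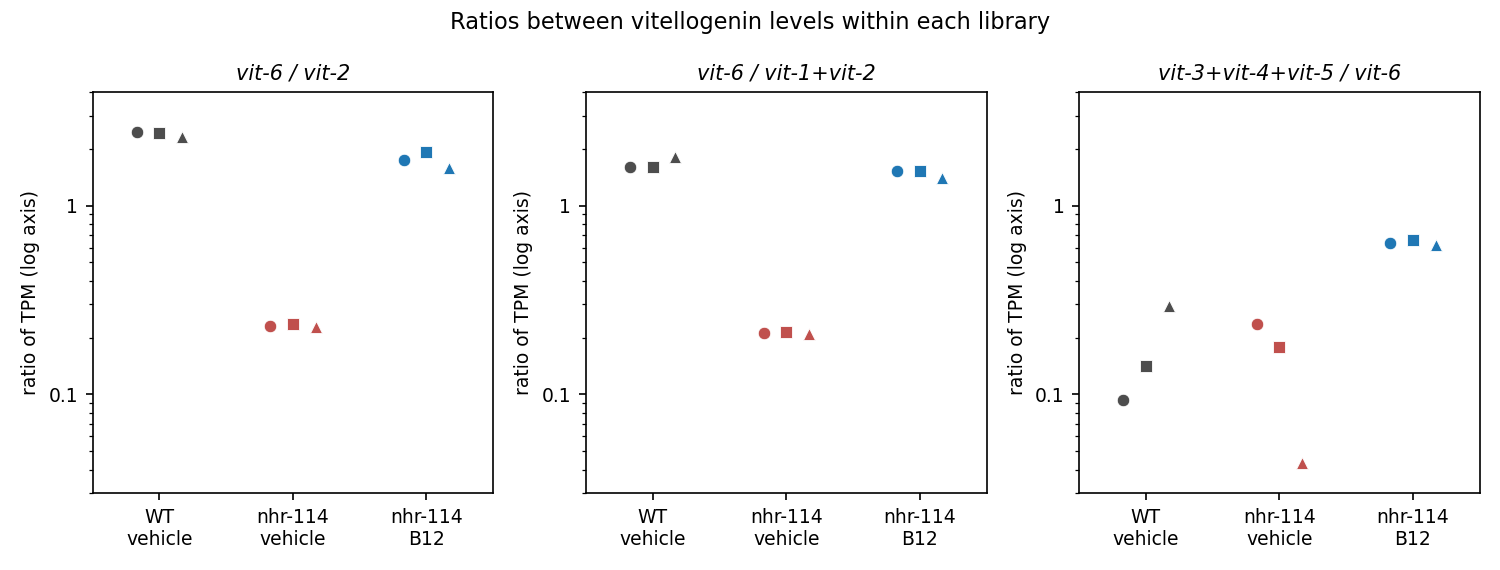
Within-library TPM ratios on a log y axis for the 3 groups on the x axis, with circles, squares and triangles for replicates 1, 2 and 3. The ratio of vit-6 to vit-2 and that of vit-6 to the vit-1 and vit-2 sum lie between 0.209 and 0.237 in the mutant vehicle libraries and above 1 in all others, and the block ratio in the last panel is highest in the 3 B12 libraries.

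Replicates of a group did not agree equally well for all members. Wild-type replicate 1 had the lowest level of each of the 6 genes in its group. In the B12 group replicate 1 had the highest level of each of the 6 genes, and replicate 2 the lowest of all but vit-1. In the mutant vehicle group replicate 3 had the lowest level of vit-3, vit-4 and vit-5 but not of vit-1, vit-2 or vit-6. For vit-4 the highest wild-type library was 8.19 times the lowest, against 2.33 times for vit-6.

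The receptor side of the yolk pathway was examined in a list of 16 genes of uptake and endocytosis, all of them tested. In the mutant with vehicle 2 were called higher and 0 lower than wild type. With B12 2 were called higher and 3 lower than with vehicle, and between B12 and wild type 1 was called higher and 0 lower. The shares of all genes called higher and lower were 18.3% and 18.3%, 22.6% and 23.8%, and 7.28% and 6.14% in the same order. No count of this list was above those shares, which also stand beside the counts of every list below. The yolk receptor gene rme-2 stood at 7.45 ± 1.75 CPM in wild type, 6.94 ± 1.79 CPM in the mutant vehicle group and 11.8 ± 4.38 CPM with B12 (n = 3 each), and passed in none of the 3 comparisons. The recycling GTPase gene rab-11.1 rose in the mutant by 0.54 ± 0.08 on the log2 scale (edgeR adjusted p = 0.000506). For rab-10, another recycling GTPase gene, the log2 fold changes of 0.30 ± 0.08 in the mutant and -0.30 ± 0.08 with B12 both passed (edgeR adjusted p = 0.0174 and 0.0138). The clathrin heavy chain gene chc-1 rose with B12 by 0.26 ± 0.08 on the log2 scale (edgeR adjusted p = 0.0241).

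Of 10 genes for yolk assembly and secretion, all were tested. In the mutant with vehicle 5 were called higher and 0 lower than wild type, and with B12 2 were called higher and 3 lower than with vehicle. Between B12 and wild type 3 were called higher and 0 lower. The gene dsc-4 encodes the microsomal triglyceride transfer protein, which loads lipid onto yolk particles. It measured 248.4 ± 39.6 CPM in wild type, 509.4 ± 47.1 CPM in the mutant vehicle group and 200.1 ± 25.9 CPM with B12 (n = 3 each). It rose in the mutant by 1.04 ± 0.13 on the log2 scale (edgeR adjusted p = 0.00024), and with B12 it fell by 1.35 ± 0.13 (edgeR adjusted p = 5.19e-05). The disulfide isomerase gene pdi-6 had log2 fold changes of 0.67 ± 0.08 and -0.78 ± 0.08 in the same comparisons, and both passed (edgeR adjusted p = 0.000157 and 6.4e-05).

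Regulators reported to act on vit genes formed a list of 18. In the mutant with vehicle 9 were called higher and 2 lower than wild type. With B12 0 were called higher and 9 lower than with vehicle, and between B12 and wild type 2 were called higher and 6 lower. Neither unc-62 nor ceh-60, which encode homeodomain activators of vit genes, was called in any comparison. The level of unc-62 was 98.2, 90.5 and 91.5 CPM and that of ceh-60 23.7, 28.95 and 30.9 CPM, as means of wild type, mutant vehicle and mutant B12. The gene for the intestinal GATA factor ELT-2, another activator, rose in the mutant by 0.40 ± 0.13 (edgeR adjusted p = 0.0341) and fell with B12 by 0.66 ± 0.13 (edgeR adjusted p = 0.00236), both on the log2 scale.

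The zinc-finger gene pqm-1 went from 34.7 ± 6.84 CPM in wild type to 125.2 ± 20.2 CPM in the mutant vehicle group and 42.96 ± 10.8 CPM with B12 (n = 3 each). It rose in the mutant by 1.85 ± 0.21 on the log2 scale (edgeR adjusted p = 0.000149) and fell with B12 by 1.54 ± 0.21 (edgeR adjusted p = 0.00033). The genes mab-3, whose product represses vit genes in males, and lin-29, a timing factor of the larva-to-adult switch, were below wild type in both mutant groups. Against wild type mab-3 fell by 1.12 ± 0.28 with vehicle and by 1.46 ± 0.29 with B12 on the log2 scale (edgeR adjusted p = 0.011 and 0.0086). For lin-29 the drops were smaller, and it fell by 0.55 ± 0.13 and by 0.65 ± 0.13 (edgeR adjusted p = 0.00812 and 0.00918). The insulin receptor gene daf-2 rose in the mutant by 0.51 ± 0.11 and fell with B12 by 0.99 ± 0.11 on the log2 scale (edgeR adjusted p = 0.00499 and 0.000103).

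Of 14 genes of larval-to-adult timing, 7 were called higher and 3 lower in the mutant with vehicle than in wild type, 1 higher and 9 lower with B12 than with vehicle, and 0 higher and 4 lower with B12 than in wild type. The transcription factor gene hbl-1, which holds larval fates in place, measured 19.5 ± 1.54 CPM in wild type, 26.4 ± 2.23 CPM in the mutant vehicle group and 10.7 ± 1.08 CPM with B12 (n = 3 each). It rose in the mutant by 0.43 ± 0.12 and fell with B12 by 1.30 ± 0.13 on the log2 scale (edgeR adjusted p = 0.0176 and 4.75e-05). Between B12 and vehicle mab-10, which encodes a cofactor of LIN-29, fell by 0.95 ± 0.12 and lin-14, an early larval timing gene, fell by 0.59 ± 0.08 on the log2 scale (edgeR adjusted p = 0.000211 and 0.000275). Neither passed between mutant vehicle and wild type, with log2 fold changes of -0.15 and 0.18. The RNA-binding factor gene lin-41 rose by 0.93 ± 0.21 and fell by 1.39 ± 0.21 in the same comparisons (edgeR adjusted p = 0.00551 and 0.000523).

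Markers of cell types and of stage also differed between the groups, not all in the direction of the vit genes. Their part in the vit results was not tested. The 18 intestine markers, the tissue that makes yolk, summed to 10123 to 12482 CPM in wild type, 11278 to 13405 CPM in the mutant vehicle group and 9579 to 10637 CPM with B12, with overlapping ranges for wild type and each mutant group. Of these, 12 were called higher and 1 lower in the mutant with vehicle, and 2 higher and 12 lower with B12, the reverse of vit-6. The 8 adult cuticle markers summed to 4687 to 6984 CPM in wild type, 1643 to 2372 CPM in the mutant vehicle group and 6663 to 9112 CPM with B12. Of these, 4 were called lower and 2 higher in the mutant with vehicle, and 1 lower and 4 higher with B12. The sum was mostly col-63, bli-1, bli-2 and bli-6, the 4 called lower. In mutant vehicle against wild type, col-7, col-19, col-62 and col-129 had log2 fold changes of 2.94, 1.78, 3.68 and 1.74. Of those, col-7 and col-62 passed, and the median of the list was 0.10.

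Of 32 tested spermatogenesis markers, 20 were called lower and 0 higher in the mutant with vehicle, and 26 higher and 0 lower with B12. They summed to 392.3 to 605.6 CPM in wild type, 136.3 to 288.1 CPM in the mutant vehicle group and 622.3 to 771.4 CPM with B12. Of 20 tested oocyte and eggshell markers, 2 were called lower with vehicle and 11 higher with B12, and of 11 germline markers 3 were called lower and 4 higher. The male markers stayed at a summed 4.33 CPM or less in every library, and 3 of their 8 were tested. No gene of these lists was at 0 in all 9 libraries.

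Inside groups, the markers and the vit sum did not always go together. Wild-type replicate 1 was lowest in the vit sum, in the adult cuticle sum and in the spermatogenesis sum. In the mutant vehicle group replicate 2 had the highest vit sum but the lowest spermatogenesis and adult cuticle sums, and in the B12 group replicate 1 had the highest vit sum but the lowest adult cuticle sum. When each library's spermatogenesis level was added to the fit as a covariate, 0 vit genes were called in any comparison. Most calls over all 14798 genes were lost as well. In mutant vehicle against wild type, 237 were called higher and 87 lower, against 2713 and 2707 without the covariate. With B12 against vehicle, 5 were called higher and 34 lower, against 3338 and 3528. In that fit the log2 fold changes of vit-6 were -2.74 (adjusted p = 0.333) in the mutant and 3.66 (adjusted p = 0.478) with B12, in edgeR, and the covariate overlapped with the groups so far that the variance of the contrast was raised 5.77 and 9.18 times.

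**Figure D5:**
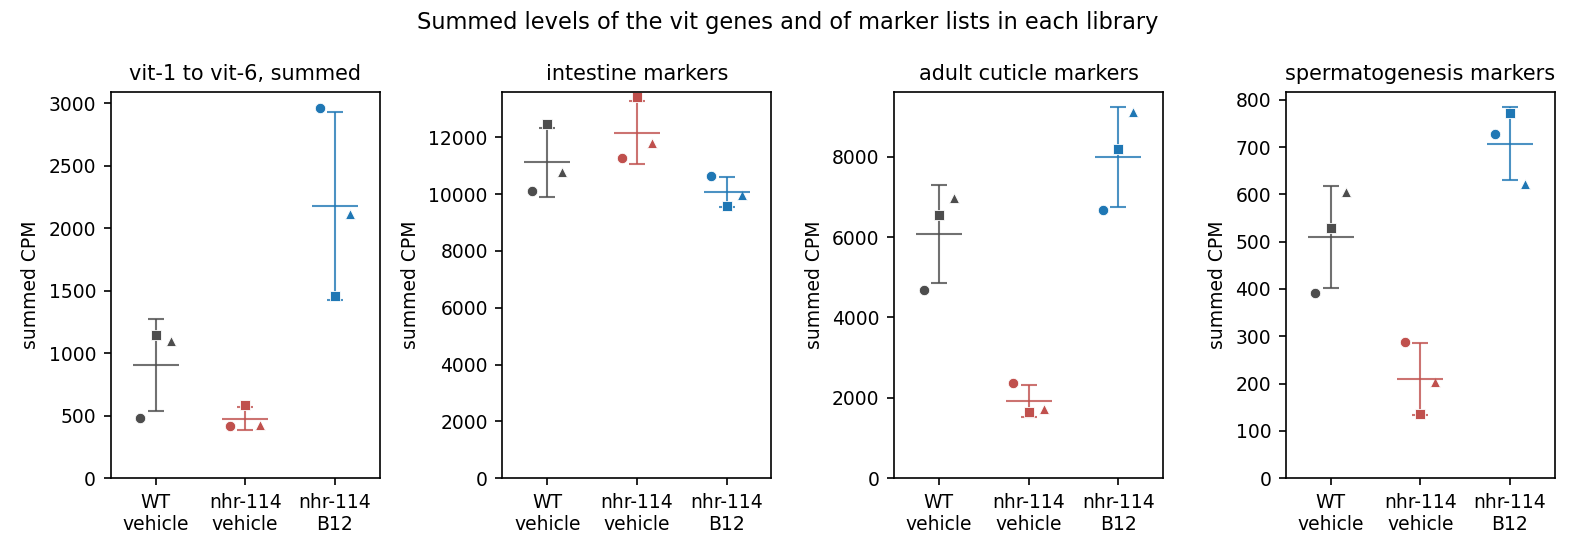
Summed CPM of vit-1 to vit-6 and of the intestine, adult cuticle and spermatogenesis marker lists, 1 panel each on a linear y axis from 0, for the 3 groups on the x axis. Circles, squares and triangles are replicates 1, 2 and 3, long bars are means and whiskers are SD (n = 3). The adult cuticle and spermatogenesis sums are lowest in the 3 mutant vehicle libraries, and the intestine sums are not. The adult cuticle sum is mostly col-63, bli-1, bli-2 and bli-6.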

How the data were processed

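RNA of whole L4 animals was sequenced as paired ends, and transcripts were quantified with kallisto 0.46.0 against WormBase release WS245 after demultiplexing with bcl2fastq, per the labels and the submitters' processing notes. Strandedness of the libraries is not stated in the sources at hand, so reads of overlapping or antisense genes cannot be told apart. The authors deposited estimated counts and effective lengths for 30939 transcripts per sample, and a table of CPM per gene whose values were within 1% of sums of the estimated counts for 99.9% of 13664 genes compared.

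Estimated counts were summed per gene and rounded, giving 20447 genes, of which 20168 matched the WBcel235 annotation and 279 kept a sequence name and held 0.165% of counts. TPM was computed from the deposited counts and effective lengths. The 9 libraries were fitted together with edgeR 4.0.16 (filterByExpr, TMM, quasi-likelihood test, Benjamini-Hochberg adjustment over 14798 genes, calls at 0.05). The block of vit-3, vit-4 and vit-5, and that of vit-1 and vit-2, were tested as 1 row each in the same fit. The fit was tested on simulated data over 14649 genes. In the mutant vehicle comparison it recovered 87.9% of 58 genes changed 4-fold and 54.4% of 57 changed 2-fold. There 11.5% of 104 calls were false, above the 0.05 threshold. With B12 against vehicle 7% of 100 calls were false, and with B12 against wild type the 1 call was false. Far fewer genes were changed there than were called in these data, so the rates need not carry over. Alternatives used other scalings and filters, DESeq2 1.42.0, limma 3.58.1, a replicate block, a covariate and libraries left out in turn. The members and gene lists were chosen with earlier results of these data known. Non-members were named by rule: from each of the 4 yolk, regulator and timing lists up to 6 genes in order of their smallest adjusted p, with rme-2, dsc-4, unc-62, ceh-60, elt-2, mab-3 and lin-29 whatever their values, the 8 genes most like the vit sum, and the nearest neighbours of each vit gene. A planned description of sequences was not made.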

Additional observations from a re-analysis of the deposited data

How the results depend on the processing

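Across 20 alternatives, the calls of vit-3 and vit-6 as lower in the mutant with vehicle and higher with B12, and of vit-1 likewise, were lost only with the spermatogenesis level as a covariate. Under that covariate the number of vit genes called was 0 in all 3 comparisons, and calls over all genes dropped as well. Every alternative started from the same kallisto division of reads, so none varied that uncertainty for vit-1 or vit-3. The vit-1 and vit-2 sum, which is free of it, passed in none of the 20 in mutant vehicle against wild type. With B12 against vehicle that sum passed in 4. For the summed vit-3, vit-4 and vit-5, mutant vehicle against wild type, the log2 fold change did not pass with no filter (-2.98), with only the 6 libraries compared (-2.99) or with the covariate (-1.64), and ran from -3.40 to -2.20 when 1 library was left out. With B12 against vehicle it did not pass with the covariate (4.06), and ran from 5.14 to 5.94 with 1 library left out. With B12 against wild type it passed with a filter of 5 CPM (2.67), DESeq2 (2.66), limma on log2(TPM + 1) (2.62) and limma on the deposited CPM (2.90), and in 6 of the 9 fits with 1 library left out (10 of 20 alternatives in all), where values ran from 2.20 to 3.40. The number of vit genes called higher with B12 against wild type was 2 with RLE scaling, 3 with upper quartile scaling, 0 without a filter, 4 with a filter of 5 CPM, 4 with DESeq2, 3 with length-scaled counts, 4 with limma on log2(TPM + 1), 3 with limma on the deposited CPM, and 0 to 4 with 1 library left out. With B12 against vehicle it was 4 with no filter or DESeq2, 6 with only the 6 libraries compared, where vit-2 passed (adjusted p = 0.0464), and 4 to 6 with 1 library left out. The number called lower in mutant vehicle against wild type was 4 with a filter of 5 CPM or DESeq2.

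Values that did not pass and changed sign were those of vit-5, mutant vehicle against wild type (-0.26 without wild-type replicate 1 and -0.12 without mutant vehicle replicate 2, range -0.26 to 1.05), and of vit-1, B12 against wild type (-0.10 with limma on log2(TPM + 1), -0.18 and -0.09 without wild-type replicates 1 and 3, -0.14 without mutant B12 replicate 1, range -0.18 to 0.50). The cause was not tested. The sum of vit-1 and vit-2 was added as a measure after seeing the data. On the log2(TPM + 1) scale the median of all genes shifted by -0.08, -0.17 and -0.23 in the 3 comparisons. Calls over all genes were then 2660 higher and 4770 lower with B12 against vehicle (3338 and 3528 in edgeR), and 755 and 3702 with B12 against wild type (1077 and 908 in edgeR, 981 and 1316 on the deposited CPM). Low counts limit vit-4 and vit-5, whose wild-type and mutant vehicle levels rest on reads divided with vit-3.

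The labels state no pairing by replicate number. Same-numbered libraries of different groups correlated between -0.22 and 0.37 in their deviations from group means, and differently numbered ones between -0.423 and 0.271. These ranges overlap, but so few libraries cannot exclude a pairing. With the replicate number as a block, the summed vit-3, vit-4 and vit-5 had a log2 fold change of -2.89 in mutant vehicle against wild type and did not pass, the vit-5 call with B12 against vehicle was lost (3.10, edgeR adjusted p = 0.0807), leaving 4 vit genes called, and 0 vit genes were called with B12 against wild type.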

Other observations

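The genes next to the vit genes on the chromosome were called in both directions. The nearest protein-coding neighbours gave 8 tested genes outside the family. In the mutant with vehicle 4 were called higher and 1 lower than wild type, with B12 1 higher and 3 lower than with vehicle, and 0 between B12 and wild type, all in edgeR. Over all genes, 18.3% were called higher and 18.3% lower in the mutant with vehicle, and 22.6% higher and 23.8% lower with B12 against vehicle. With 8 genes, the counts are a description only. On the left of vit-1, the saposin-like gene spp-14 rose by 0.74 on the log2 scale in the mutant and fell by 0.65 with B12 (edgeR adjusted p = 0.000316 and 0.00054), while vit-1 fell and rose. On its right, set-12 rose by 1.62 and fell by 1.88 in the same comparisons (edgeR adjusted p = 0.00152 and 0.000596). On the left of vit-2, the molting gene acn-1 fell by 0.68 in the mutant and rose by 0.58 with B12 (edgeR adjusted p = 0.00108 and 0.00195). The gene unc-78, which encodes an actin regulator and whose 3′ end lies 70 bases from that of vit-5, passed in no comparison, with log2 fold changes of 0.05, 0.04 and 0.09. The protein-coding gene C42D8.9, annotated on the strand opposite to vit-2 and overlapping it, stayed at 0.978 CPM or less in every library.

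The 8 named genes outside the family whose profile over the 9 libraries was most like that of the summed vit genes were pals-9, col-34, umps-1, srlf-15, srx-58, cest-1.2, gst-10 and pho-12. Likeness was the root mean square difference of log2 CPM, each centred on its own mean, and ran from 0.33 to 0.413 among these 8. The vit genes themselves lay farther from their own sum, from 0.583 for vit-1 to 2.01 for vit-3. The 8 genes were picked as the closest, so this gap follows in part from that choice. The gene umps-1, which encodes uridine monophosphate synthase, had means of 126.4, 71.1 and 271.5 CPM in wild type, mutant vehicle and mutant B12. For pals-9 the means in that order were 0.417, 0.191 and 0.901 CPM, so its likeness rests on few reads. The cuticle collagen gene col-34 had 128.95, 71.3 and 257.1 CPM in the same order. This is a description over 9 libraries that differ by group, with no test of likeness.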
